A study of Mus musculus with 10 samples.

Results

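Rab GTPases are the largest family of small GTPases that direct membrane traffic, and 34 of the 6147 genes in the deposited table code for one: every gene whose name is Rab followed by a number and at most a letter and a digit. All 34 had a mean of at least 1 TPM over the 10 libraries and entered the test; Rab4b, at 0.657 to 1.83 TPM, lay just above that limit. Poly(A) RNA from neocortex of mice of the outbred strain CD1, labelled wild type, was sequenced on 4 days of gestation (E12.5, E14, E15.5 and E17) and at birth (P0). Each stage had 2 libraries, described by the submitters as biological duplicates. The labels name no treatment or mutant allele, and the stages are the groups compared. The labels do not name the animal, litter, sex or any pooling behind a library, so p-values measure the spread between these samples. The lists of Rab genes by role used below hold 61 names, of which the 34 are in the table; the other 27 are not analysed here, so medians and sums by role cover part of the family. Values are TPM, each gene's share of all transcripts after correction for gene length, so levels of different genes can be set side by side.

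A Rab protein acts as a switch: an exchange factor loads it with GTP on a given membrane, where it recruits effectors such as motors and tethers, and a GTPase-activating protein turns it off. A prenyl group added by geranylgeranyl transferase anchors it, and soluble carriers take the inactive form off the membrane for reuse. In neurons Rab3 proteins sit on synaptic vesicles, Rab1, Rab2 and Rab6 work at the endoplasmic reticulum and Golgi, Rab5 and Rab4 at early and recycling endosomes, and Rab8 and Rab10 carry cargo to the plasma membrane and the cilium.

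The 34 genes lie on 17 chromosomes, 3 of them on the X. Sequence upstream of the annotated start is shown for 4 genes chosen after their values were seen: Rab9b and Rab3b, which had the largest rises described below, Rab6b, the most abundant Rab gene at P0, and Rab8b, an abundant gene that fell. Each is the 250 bases before the RefSeq transcription start in GRCm38.p6, read 5′ to 3′ on the gene's strand: chrX:136868557-136868806 (reverse) for Rab9b, chr4:108878820-108879069 (forward) for Rab3b, chr9:103111824-103112073 (forward) for Rab6b and chr9:66919706-66919955 (reverse) for Rab8b. Capitals mark matches on either strand to the GC box GGGCGG, to the cAMP response element TGACGTCA, to the E-box form CAGATG and to the TATA box form TATAAA.
Rab9b: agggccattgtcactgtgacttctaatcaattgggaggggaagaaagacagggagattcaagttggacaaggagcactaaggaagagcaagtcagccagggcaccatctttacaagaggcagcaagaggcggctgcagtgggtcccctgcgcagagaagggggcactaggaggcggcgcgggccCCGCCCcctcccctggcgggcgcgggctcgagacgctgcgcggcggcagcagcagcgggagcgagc
Rab3b: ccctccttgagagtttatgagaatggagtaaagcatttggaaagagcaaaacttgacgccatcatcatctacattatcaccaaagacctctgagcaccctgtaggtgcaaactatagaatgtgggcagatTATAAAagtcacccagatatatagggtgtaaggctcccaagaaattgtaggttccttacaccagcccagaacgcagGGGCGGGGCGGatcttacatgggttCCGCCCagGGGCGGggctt
Rab6b: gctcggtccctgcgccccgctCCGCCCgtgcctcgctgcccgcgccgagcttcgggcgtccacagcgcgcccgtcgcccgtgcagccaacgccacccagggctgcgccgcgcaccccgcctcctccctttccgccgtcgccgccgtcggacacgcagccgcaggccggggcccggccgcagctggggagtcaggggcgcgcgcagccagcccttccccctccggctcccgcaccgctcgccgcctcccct
Rab8b: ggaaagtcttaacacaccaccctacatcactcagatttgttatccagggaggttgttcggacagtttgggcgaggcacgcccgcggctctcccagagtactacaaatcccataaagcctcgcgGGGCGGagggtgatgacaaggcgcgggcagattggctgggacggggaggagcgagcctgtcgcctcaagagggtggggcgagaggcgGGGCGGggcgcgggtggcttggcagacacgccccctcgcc
GENCODE M21 places some starts elsewhere: 250 of the 250 bases of the Rab6b window, 199 of Rab9b, 7 of Rab3b and 0 of Rab8b lie within the gene as that annotation gives it. The GC content was 64.4% for Rab9b, 48.8% for Rab3b, 80.8% for Rab6b and 64.4% for Rab8b. RefSeq entries were held for 30 of the 34 genes, with 34 starts among them, and the median GC content of these windows was 63.2%, against 52.4% for all 32851 windows of that length. On either strand, the GC box stood in 26 of the 34 Rab windows (76.5%), against 32.7% of all windows. The TATA box form stood in 2 (5.88%, against 12.4%), the E-box form in 2 (5.88%, against 14.4%), and the cAMP response element in 1 (2.94%, against 1.55%). These are matches of letters in the reference and say nothing of binding.

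As a group the 34 Rab genes in the table took a larger share of all TPM at each later stage. Rab genes missing from the table are not in this sum. The genes of the table together hold 68.9% to 71.7% of all TPM in a library, so shares of all genes below are shares of a part of the transcriptome. Summed over the 34 genes, the level was 5293 and 5171 TPM at E12.5, 5552 and 5619 at E14, 6745 and 6757 at E15.5, 7452 and 7119.6 at E17, and 8029.6 and 8175 at P0. No library of a stage overlapped with those of the stage before it, and the sum went from 0.529% and 0.517% of all TPM at E12.5 to 0.803% and 0.818% at P0. At E12.5 and E14 the most abundant member was Rab10, at 502 ± 20.8 TPM (SD, n = 2) at E12.5, followed by Rab14 and Rab2a. By P0 Rab6b led with 834 ± 16.9 TPM (SD, n = 2), followed by Rab2a, Rab6a and Rab10. In whole tissue, fewer cells of a type and less RNA per cell cannot be told apart.

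Between E12.5 and P0, 23 of the 34 Rab genes rose and 5 fell (limma on log2(TPM + 1), adjusted p under 0.05), against 27.1% of all 6048 genes tested that rose and 51% that fell, 78.2% called in all. The median change of the Rab genes was 0.49 on the log2 scale, and that of all genes tested was -0.27. With median-of-ratios scaling, which moved the latter to -0.01, 27 Rab genes rose and 4 fell (75.6% of all genes called). A rise of at least 1 on the log2 scale was, as deposited, called for 9 Rab genes (11.1% of all genes) and a fall of at least 1 for 2 (20% of all genes). In 25 genes both P0 libraries lay above both E12.5 libraries, in 6 both lay below, and in 3 they overlapped. Over all genes tested, 32.5% lay above and 58.4% below. Over all stages, the F test called 30 of the 34 (82.9% of all genes); Rab1b, Rab4b, Rab18 and Rab21 were not called.

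**Figure D1:**
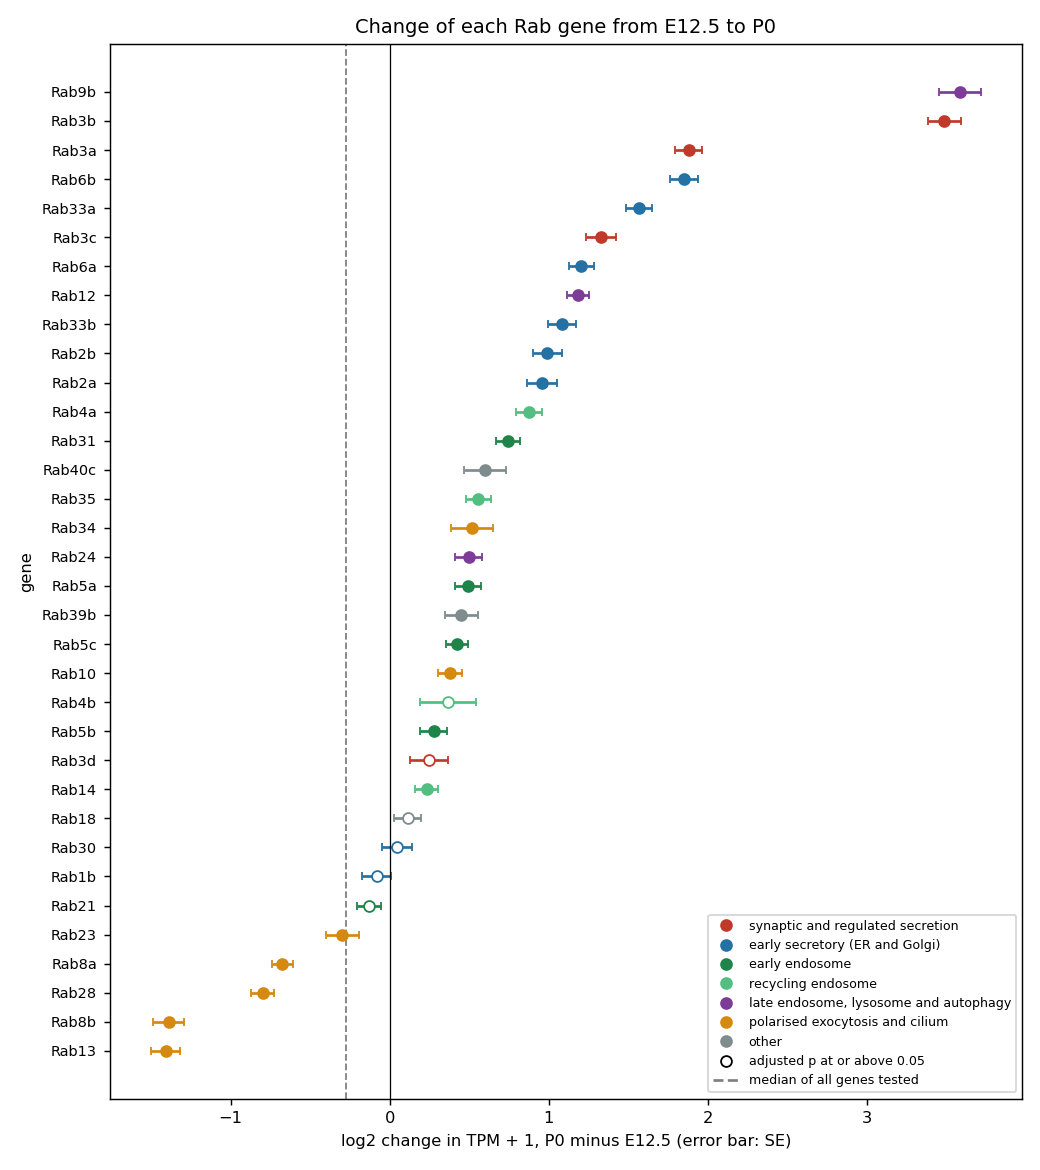
Change of each of the 34 Rab genes from E12.5 to P0 on the log2(TPM + 1) scale (horizontal axis) with its standard error, coloured by the role of the protein; open points did not pass an adjusted p of 0.05 and the dashed line is the median of all genes tested, -0.27. Rab9b and Rab3b stand apart at 3.59 and 3.49, and the 5 genes that fell all belong to the group of polarised exocytosis and cilium.

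By role, the median change from E12.5 to P0 was 1.60 for the 4 synaptic Rab genes and 1.04 for the 8 of the early secretory pathway. Among endosomal Rab genes it was 0.42 for the 5 of early endosomes, 0.46 for the 4 of recycling endosomes and 1.18 for the 3 of late endosomes and autophagy. The 7 genes of polarised exocytosis and the cilium had a median of -0.68, and the other 3 one of 0.45. Each median rests on the genes in the table, which are 4 of 8 listed for synaptic, 8 of 13 for early secretory, 5 of 7 for early endosome, 4 of 9 for recycling, 3 of 10 for late endosome and 7 of 7 for polarised roles. Differences between roles were not tested. The counts of called genes by role below stand against 27.1% of all genes tested that rose over this span and 51% that fell.

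The Rab3 proteins, which bind synaptic and secretory vesicles and act in regulated release, had 4 genes in the table, of which Rab3a, Rab3b and Rab3c rose from E12.5 to P0. Together they summed to 392 and 403 TPM at E12.5, 604 and 607 at E14, 1033 and 1032 at E15.5, 1201 and 1048 at E17, and 1118 and 1139 at P0. The sum went up without overlap as far as E17, although the lower E17 library, at 1048 TPM, was close to those of E15.5. The E17 and P0 libraries overlapped, with members on different courses after E15.5.

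Rab3a, the main Rab3 of brain synaptic vesicles (chromosome 8, 70754679 to 70758677, forward strand, GRCm38), was at 129.7 and 138 TPM at E12.5, 198 and 179 at E14, 352 and 354 at E15.5, 415 and 373 at E17, and 514 and 477 at P0. No 2 neighbouring stages overlapped, and the rise from E12.5 to P0 was 1.88 (SE 0.08, adjusted p = 2.2e-09). Rab3c, another synaptic vesicle Rab, was at 179 and 169 TPM at E12.5, 285 and 315 at E14, 525 and 525 at E15.5, 602 and 527 at E17, and 411 and 469 at P0. It was the most abundant of the 4 through E17 and both P0 libraries were below both E17 libraries. Its steps to E14 and to E15.5 rose by 0.78 (adjusted p = 0.000882) and 0.81 (adjusted p = 2.93e-05), and its step from E17 to P0 fell by 0.36 (adjusted p = 0.011).

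Rab3b, studied at inhibitory synapses and in secretory cells (chromosome 4, 108879063 to 108943324, forward strand), was at 6.99 and 8.42 TPM at E12.5, 10.8 and 10.6 at E14, 26.4 and 28.1 at E15.5, 46.1 and 46.4 at E17, and 98.6 and 93.8 at P0. It began as the lowest of the 4 and its libraries lay above those of the previous stage at every step. The change to P0 was 3.49 (SE 0.10, adjusted p = 7.66e-11), and each of the 4 steps was called. Rab3d, best known from granules of exocrine glands, was at 76.7 and 86.5 TPM at E12.5, 110.1 and 103 at E14, 129 and 126 at E15.5, 137 and 102 at E17, and 95.4 and 98.6 at P0. Its E17 libraries lay far apart, and its change to P0 was 0.25 (SE 0.12, adjusted p = 0.0767), not called as reported here but called in 6 of 22 alternatives.

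**Figure D2:**
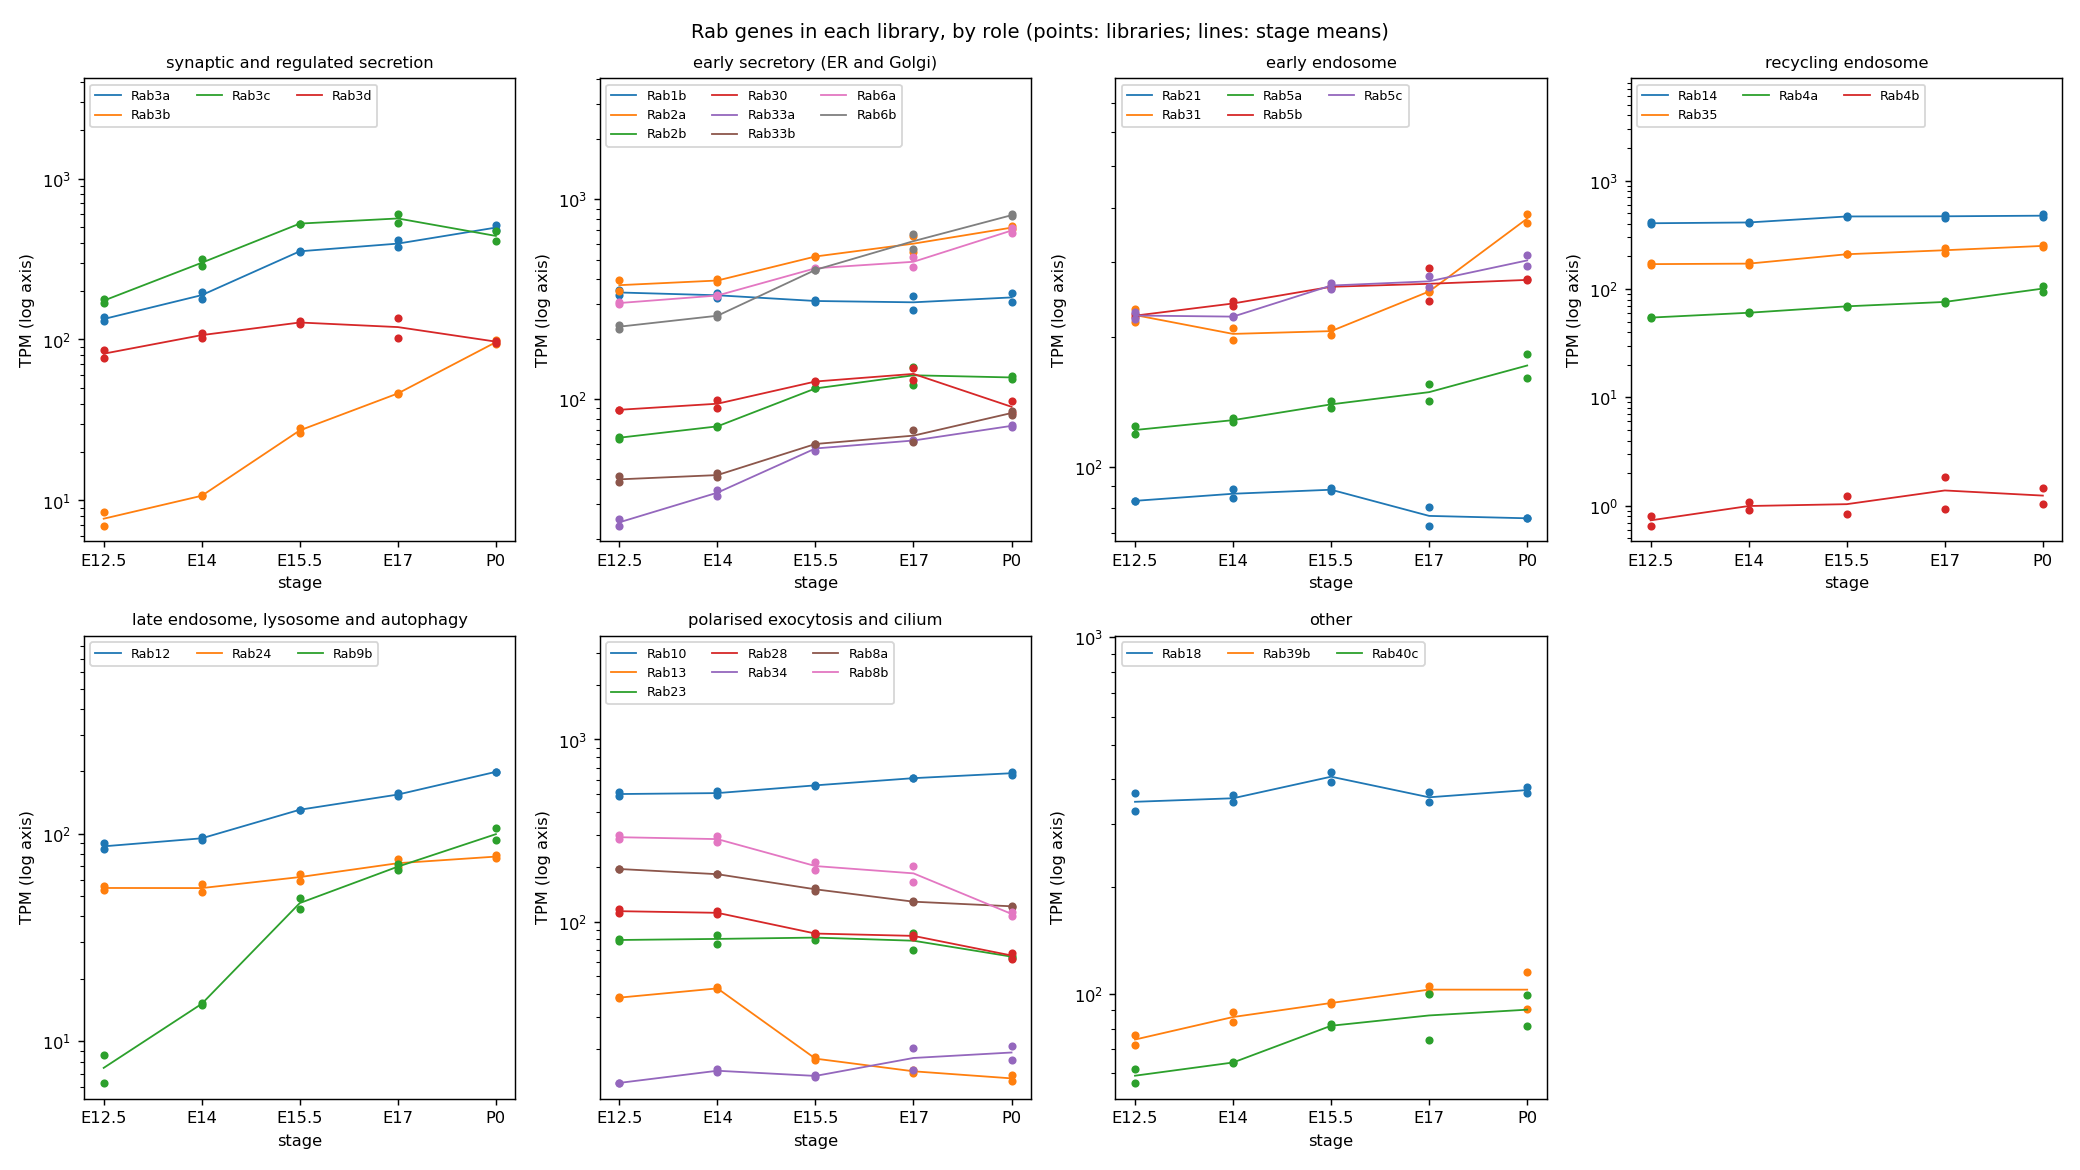
TPM on a log axis at the 5 stages for the 34 Rab genes in 7 groups by role; points are single libraries and lines join stage means of 2 libraries. Rab3b and Rab9b climbed from under 10 TPM to near 100, while Rab3c turned down between E17 and P0.

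Ratios between close relatives show how the makeup of the family moved, since a ratio within a library hardly depends on that library's scaling. Of 12 pairs tested with an exact permutation test over the 945 ways to split 10 libraries into 5 pairs, 5 changed over the stages after Benjamini-Hochberg adjustment, and 4 of those were Rab3 pairs, which share members with each other. The smallest exact p this design allows is 0.00106. Rab3a was 17.5 times as abundant as Rab3b at E12.5 and 5.15 times at P0, as mean ratios of TPM. The log2 ratio on TPM + 1, the scale tested, was lower by 1.61 at P0 (exact permutation test, adjusted p = 0.00847). Rab3c against Rab3b went from 22.9 to 4.58 (adjusted p = 0.00847, same exact test), and Rab3a against Rab3d from 1.64 to 5.12 (adjusted p = 0.00847). These 3 pairs passed in all 13 alternatives.

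The order of Rab3a and Rab3c changed at birth. Their log2 ratio was -0.46 and -0.29 at E12.5, -0.52 and -0.81 at E14, -0.58 and -0.57 at E15.5, -0.54 and -0.50 at E17 and 0.32 and 0.03 at P0. It was below 0 in all 8 embryonic libraries and above 0 in both P0 libraries, although in 1 of these by only 0.025. The exact permutation test gave an adjusted p of 0.0406, which rose past 0.05 in 10 of 13 alternatives (0.0127 to 0.117).

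**Figure D3:**
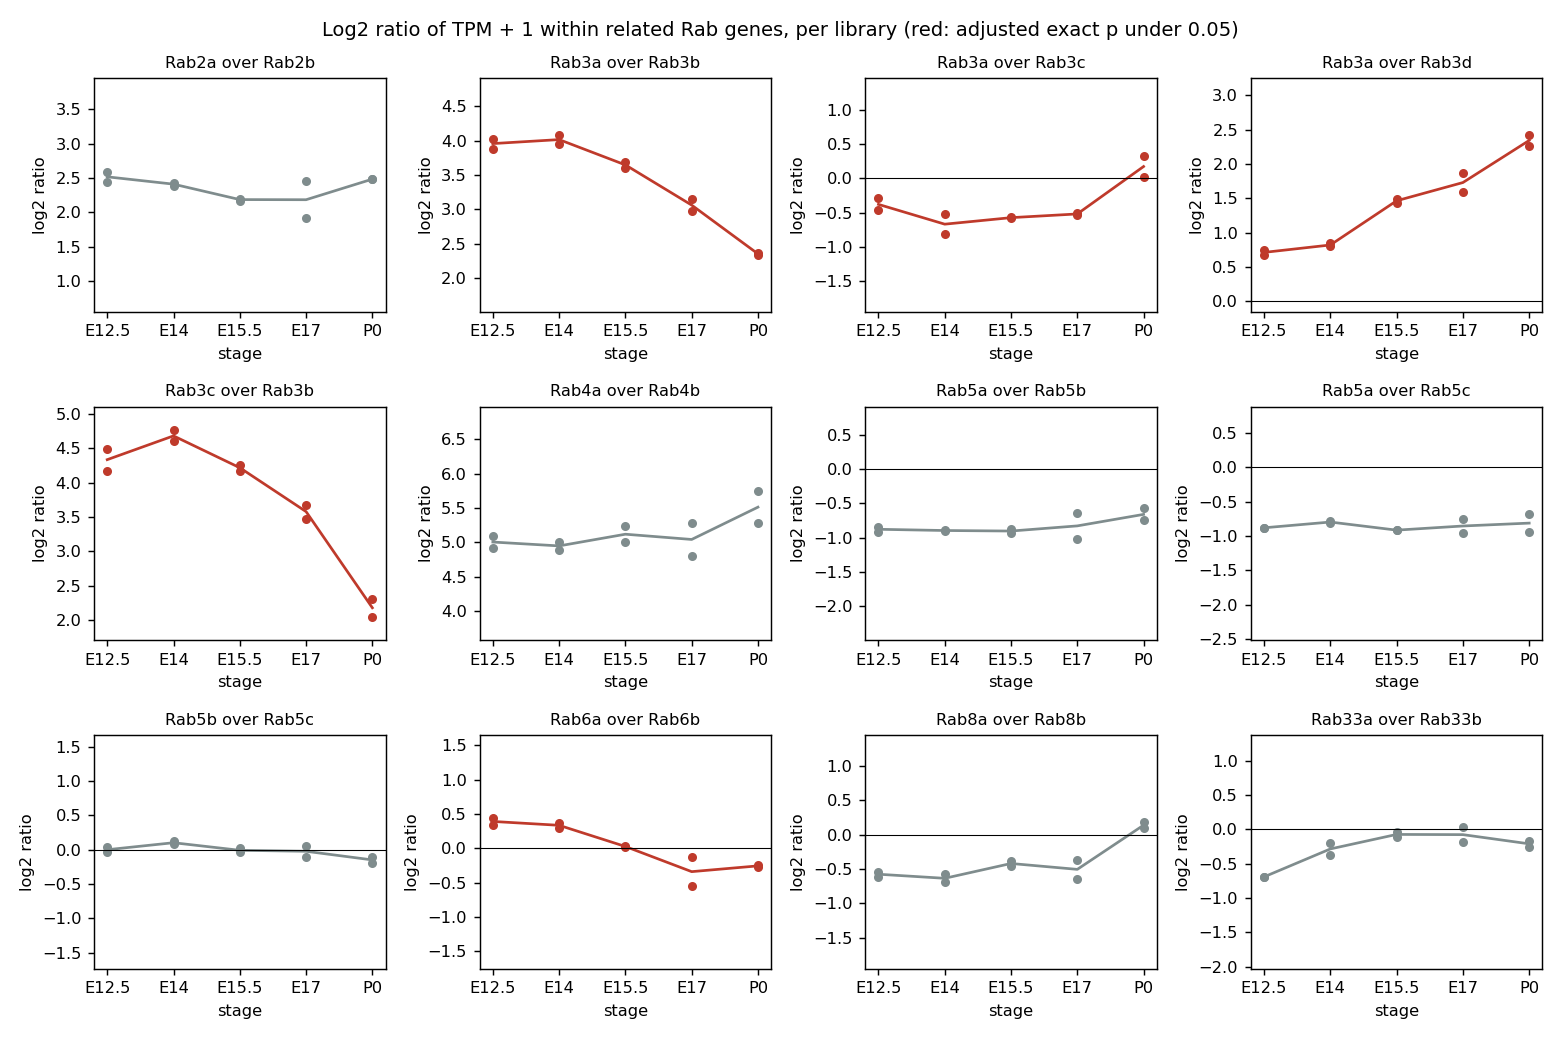
Log2 ratio of TPM + 1 between the 2 members of each of the 12 pairs in the 10 libraries, by stage; 0 means equal levels. Rab3a/Rab3b and Rab3c/Rab3b fell towards 0, Rab3a/Rab3d rose, and Rab6a/Rab6b crossed 0 between E15.5 and E17.

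Among the 8 Rab genes of the early secretory pathway, 6 rose from E12.5 to P0, and Rab1b and Rab30 were not called (limma; changes -0.08 and 0.05, adjusted p = 0.415 and 0.664). Their summed level went from 1479.6 and 1451 TPM at E12.5 to 2919.8 and 2995 at P0, the highest of the 7 groups. Rab2a, which acts between endoplasmic reticulum and Golgi and on maturing vesicles, was at 395 and 350.0 TPM at E12.5, 399.7 and 386 at E14, 523 and 513 at E15.5, 548 and 654 at E17, and 709 and 736 at P0. The change to P0 was 0.96 (SE 0.10, adjusted p = 2.3e-06), and its E12.5 and E14 libraries overlapped. A transcript of Gm5865 matches 637 bases of Rab2a at 96.4%.

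Rab6b is the form of Rab6 enriched in neurons, where it acts in transport from the Golgi (chromosome 9, 103111787 to 103185276, forward strand). It was at 225 and 236 TPM at E12.5, 267 and 257 at E14, 443 and 445 at E15.5, 673 and 564 at E17, and 822 and 846 at P0. Its libraries rose without overlap at every step, and the change to P0 was 1.85 (SE 0.09, adjusted p = 3.62e-09). The widely expressed form Rab6a was at 307 and 299 TPM at E12.5, 329 and 332 at E14, 454 and 451 at E15.5, 458 and 517 at E17, and 680.1 and 717 at P0. It rose less, by 1.20 (SE 0.08, adjusted p = 5.85e-08), so that Rab6a was the higher of the pair in the 6 libraries up to E15.5 and Rab6b in all 4 at E17 and P0. The ratio Rab6a/Rab6b went from 1.31 to 0.838 (exact permutation test, adjusted p = 0.0406; past 0.05 in 9 of 13 alternatives, 0.00635 to 0.108). A transcript of Gm13082 matches 557 bases of Rab6a at 95.3%, and 19.0% of the exon bases of Rab6a overlap a gene on the opposite strand, Mrpl48; how the authors assigned such reads is not stated in the labels.

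Rab33b, a Golgi Rab, rose by 1.08 (SE 0.09, adjusted p = 3.93e-07), and its relative Rab33a by 1.57 (SE 0.08, adjusted p = 8.76e-09). Rab2b rose by 0.99 (SE 0.09, adjusted p = 1.22e-06), but 64.0% of its exon bases lie opposite Tox4 and Gm43766, so its value is uncertain unless strand was used in counting. Rab30, a Golgi Rab, rose from E14 to E15.5 by 0.37 (SE 0.09, adjusted p = 0.00663) and fell from E17 to P0 by 0.54 (SE 0.09, adjusted p = 0.00119), ending at 91.7 ± 8.87 TPM against 88.5 ± 0.201 at E12.5 (SD, n = 2).

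Of the 5 early endosome genes, 4 rose from E12.5 to P0 and Rab21 was not called (-0.13, adjusted p = 0.13). Rab5c, 1 of the 3 forms of the Rab that governs fusion of early endosomes, was at 229 and 220.3 TPM at E12.5, 224 and 222 at E14, 259.6 and 268 at E15.5, 278 and 262 at E17, and 310.3 and 293 at P0. Its change was 0.42 (SE 0.07, adjusted p = 0.000176), with E12.5 overlapping E14 and E15.5 overlapping E17. Rab5a and Rab5b rose by 0.49 (adjusted p = 0.000173) and 0.27 (adjusted p = 0.0104), the latter call lost without E12.5 replicate 1 (adjusted p = 0.0571). None of the 3 Rab5 ratios changed by the exact permutation test (adjusted p = 0.189, 0.427 and 0.767), and a transcript of Gm13991 matches 648 bases of Rab5b at 99.4%.

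Rab31, which serves traffic between the trans-Golgi network and endosomes, had the largest rise of the early endosome group and a late one. It was at 217 and 233 TPM at E12.5, 197 and 210.0 at E14, 203 and 211 at E15.5, 255 and 256 at E17, and 387 and 368 at P0. The 4 libraries of E14 and E15.5 lay below those of E12.5, and both P0 libraries lay above all others. Its step to E17 was 0.31 (SE 0.07, adjusted p = 0.0124) and its step to P0 0.56 (SE 0.07, adjusted p = 0.000201).

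In the recycling endosome group, 3 of 4 genes rose and Rab4b, at about 1 TPM and sharing 65.0% of its exon bases with Gm21983 on the same strand, was not called (called in 5 of 20 alternatives). Rab14, which links the Golgi with recycling endosomes and is the most abundant of them, was at 413 and 397 TPM at E12.5, 410.0 and 413 at E14, 463 and 472 at E15.5, 482 and 456 at E17, and 458 and 493 at P0. E12.5 overlapped with E14, the later stages overlapped with each other, and the change of 0.23 (SE 0.07, adjusted p = 0.0132) was lost without E12.5 replicate 2 (adjusted p = 0.0938) or P0 replicate 2 (adjusted p = 0.0643). Rab4a, the Rab of fast recycling, was at 55.2 and 53.8 TPM at E12.5, 60.0 and 60.8 at E14, 68.2 and 70.3 at E15.5, 78.0 and 74.0 at E17, and 108 and 94.1 at P0. Its libraries rose without overlap at every step, the change to P0 being 0.87 (SE 0.08, adjusted p = 1.54e-06). Rab35, which recycles cargo to the plasma membrane, rose by 0.56 (SE 0.08, adjusted p = 4.31e-05).

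The 3 genes in the table of the 10 listed for late endosome, lysosome and autophagy all rose. Rab9b, a relative of the Rab9 that returns receptors from late endosomes to the Golgi (X chromosome, 136858147 to 136868755, reverse strand), was at 8.62 and 6.29 TPM at E12.5, 15.0 and 15.3 at E14, 43.7 and 49.1 at E15.5, 71.9 and 67.2 at E17, and 93.1 and 106 at P0. With Rab3b it had the largest change of the 34, 3.59 (SE 0.13, adjusted p = 4.17e-10), a 13.4-fold ratio of mean TPM; without E12.5 replicate 2 its change was 3.39 and that of Rab3b 3.60. No neighbouring stages overlapped and all 4 steps were called, as they were for Rab3b and no other Rab gene. Rab12, which acts in degradation of recycling receptors, was at 90.0 and 84.2 TPM at E12.5, 93.4 and 97.1 at E14, 131 and 131 at E15.5, 153 and 157 at E17, and 199 and 199 at P0. Its change was 1.18 (SE 0.07, adjusted p = 2.37e-08), with no overlap between neighbouring stages. Rab24, linked to autophagy, rose by 0.49 (SE 0.08, adjusted p = 0.000211); 62.4% of its exon bases lie opposite Prelid1.

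The 7 genes of polarised exocytosis and the cilium held all 5 Rab genes that fell from E12.5 to P0, while Rab10 and Rab34 rose. The share of the group that rose, 28.6%, was near the 27.1% of all genes tested, of which 51% fell. The summed level went from 1255 and 1207 TPM at E12.5 to 1035 and 1058 at P0, the single group of the 7 whose sum was lower at P0. Rab10, which carries membrane to the growing axon and to dendrites, was at 516 and 487 TPM at E12.5, 494 and 521 at E14, 561 and 558 at E15.5, 615 and 611 at E17, and 639 and 666 at P0, a rise of 0.38 (SE 0.07, adjusted p = 0.000554). Both P0 libraries lay above all embryonic ones.

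Rab13, known from tight junctions and directed outgrowth (chromosome 3, 90213695 to 90226385, forward strand), also fell. It was at 38.4 and 38.1 TPM at E12.5, 43.6 and 42.4 at E14, 18.0 and 17.4 at E15.5, 14.7 and 15.4 at E17, and 14.3 and 13.3 at P0. The 4 libraries of E12.5 and E14 lay far above the other 6, and the 1 step that was called was that from E14 to E15.5, -1.24 (SE 0.09, adjusted p = 1.06e-06), against -1.41 (SE 0.09, adjusted p = 5.13e-08) over the full span. The summed level of choroid plexus markers (2 of 7 listed in the table) lay between 303 and 1517 TPM at E12.5 and E14 and between 3.07 and 5.26 from E15.5 on. For embryonic erythroid markers (3 of 10) these ranges were 1880 to 4494 and 2.04 to 9.84 TPM, for meningeal markers (6 of 8) 140.3 to 271 and 3.52 to 8.39, and for Cdh5, the 1 endothelial marker of 9, 9.26 to 15.3 and 1.02 to 3.30. From E12.5 to E14 the courses differed: mean erythroid markers went from 4409 to 1928 TPM, meningeal from 269 to 147 and Cdh5 from 14.6 to 9.52. Choroid plexus markers rose from 377 to 1461 TPM, and both E14 libraries of Rab13 lay above both of E12.5. All 4 lists then dropped from E14 to E15.5, the step at which Rab13 fell. Hbb-bh1 was listed at 0 in both P0 libraries and no other marker of these lists was at 0 in any library. Their part in the fall of Rab13, and in the other changes at that step, was not tested.

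Rab8b and Rab8a, which deliver cargo to the plasma membrane and into the cilium, both fell. Rab8b (chromosome 9, 66843664 to 66919687, reverse strand) was at 297 and 284 TPM at E12.5, 273 and 294 at E14, 211 and 192 at E15.5, 202 and 166 at E17, and 107 and 113 at P0. Both P0 libraries lay below all others, and the gene fell by 1.39 (SE 0.10, adjusted p = 1.11e-07) in all. Its last step, from E17 to birth, fell by 0.73 (SE 0.10, adjusted p = 0.000241). The falls of Rab13 and Rab8b over the full span differed by less than their SE. A transcript of Gm20689 matches 279 of its bases at 100%. Rab8a was at 194 and 195 TPM at E12.5, 182 and 182 at E14, 154 and 147 at E15.5, 129 and 128 at E17, and 122 and 121 at P0. Its 4 libraries of E17 and P0 lay below the other 6, and it fell by 0.68 (SE 0.07, adjusted p = 1.94e-06). Rab8b was the higher of the pair in both E12.5 libraries and Rab8a in both P0 libraries, but the ratio was not called over the stages (exact permutation test, adjusted p = 0.0726).

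Rab28, which acts at the cilium, fell by 0.80 (SE 0.07, adjusted p = 1.26e-06). Rab23, a ciliary Rab that restrains Hedgehog signalling, fell by 0.30 (SE 0.10, adjusted p = 0.0192); the call was lost with quantile scaling (-0.16), with median-of-ratios scaling (-0.03), and without any single library of E12.5 or P0. Rab34, which acts in the formation of cilia, was at 13.1 and 13.0 TPM at E12.5, 14.9 and 15.46 at E14, 14.01 and 14.4 at E15.5, 20.3 and 15.4 at E17, and 20.8 and 17.5 at P0. The E15.5 libraries lay below those of E14, E17 overlapped with P0, and the rise was 0.52 (SE 0.13, adjusted p = 0.00374). Markers of proliferating cells, 6 of 7 in the table, summed to 771 to 806 TPM at E12.5 and 76.8 at P0, and neuronal markers, also 6 of 7, to 2374 to 2407 and 8569 to 9326. Neocortex markers (7 of 10) lay between 1023 and 1646 TPM in every library, astrocyte markers (6 of 7) between 231 and 372, the microglial marker C1qb (1 of 9) between 4.66 and 8.93 and the oligodendrocyte lineage marker Cspg4 (1 of 7) between 0.392 and 1.40. The shifts in proliferating and neuronal markers run beside the Rab changes of every group; their part was not tested.

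Of the other 3 Rab genes, 2 rose. Rab18, which acts on lipid droplets and the endoplasmic reticulum, was at 367 and 325 TPM at E12.5, 346 and 362 at E14, 393 and 420.3 at E15.5, 345 and 368 at E17, and 366 and 381 at P0. Its E15.5 libraries were the highest, and the change to P0, 0.11 (SE 0.08, adjusted p = 0.231), was not called, nor was the F test (adjusted p = 0.110). Rab40c, part of a ubiquitin ligase, was at 56.3 and 61.9 TPM at E12.5, 64.0 and 64.7 at E14, 80.8 and 82.3 at E15.5, 99.9 and 74.4 at E17, and 99.7 and 81.3 at P0. At E17 and P0 replicate 1 was well above replicate 2, and the change to P0 was 0.60 (SE 0.13, adjusted p = 0.00133). Rab39b, whose loss in people causes intellectual disability with parkinsonism, rose by 0.45 (SE 0.10, adjusted p = 0.00187).

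The steps between neighbouring stages held unequal shares of these changes. From E12.5 to E14, 5 Rab genes rose and the other 29 were not called (8.73% of all genes called, 3.95% higher and 4.78% lower): Rab3a, Rab3b, Rab3c, Rab9b and Rab33a. The Rab share was 14.7%. The count was 2 without E12.5 replicate 1 or E14 replicate 1 (1.08% and 1.47% of all genes called) and 3 without E12.5 replicate 2 (1.37%). It was 8 without E17 replicate 1 or 2 (29.3% and 29.2% of all genes), where the Rab shares of 24.2% and 23.5% lay below that of all genes.

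Between E14 and E15.5, 14 Rab genes rose and 4 fell, against 18.4% and 33.3% of all genes (51.7% in all), with a median change of 0.20 for the Rab genes and -0.13 for all genes tested. This was the step with the largest change in size for 21 of the 34, of which 17 went up and 4 down. The same was not counted over all genes. Of the 4 steps, this one also held the most calls over all genes (51.7%, against 8.73%, 25% and 41.7%). With median-of-ratios scaling the called Rab genes at this step were 22 higher and 3 lower (73.5% of the Rab genes and 51.8% of all genes called). The largest rises were those of Rab9b, by 1.55 (SE 0.13, adjusted p = 2.81e-06), and Rab3b, by 1.27 (SE 0.10, adjusted p = 1.84e-06). The fallers were Rab13, Rab8b, Rab28 and Rab8a.

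From E15.5 to E17, 5 rose (Rab3b, Rab6b, Rab9b, Rab12 and Rab31) and Rab8a fell, against 14.4% and 10.6% of all genes (25% in all). The 2 E17 libraries differed from each other more than those of any other stage: the SD over genes of the log2 difference between replicates was 0.285, against 0.088 to 0.176 at the other 4. The count of 6 calls, 17.6% of the Rab genes, became 10 when replicate 1 of E17 was left out (29.6% of all genes called) and 16 when replicate 2 was (52.3%). It became 2 or 3 when replicate 1 or 2 of E15.5 was left out (7.7% and 8.49% of all genes). Rescaled without globins, the split was 5 higher and 0 lower (14.7% of the Rab genes and 24.4% of all genes called).

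From E17 to P0, 11 rose and 5 fell, against 12.9% and 28.8% of all genes (41.7% in all). Rab3b rose most, by 1.04 (SE 0.10, adjusted p = 3.09e-05), followed by Rab31. The fallers came from 3 groups: Rab8b, Rab28 and Rab23 of the exocytosis and cilium group, Rab30 of the Golgi, and Rab3c of synaptic vesicles. The mean was highest at P0 for 20 of the 34 genes, at E17 for 5, at E15.5 for 4, at E14 for 1 and at E12.5 for 4. The stage of the highest mean was not counted over all genes.

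**Figure D4:**
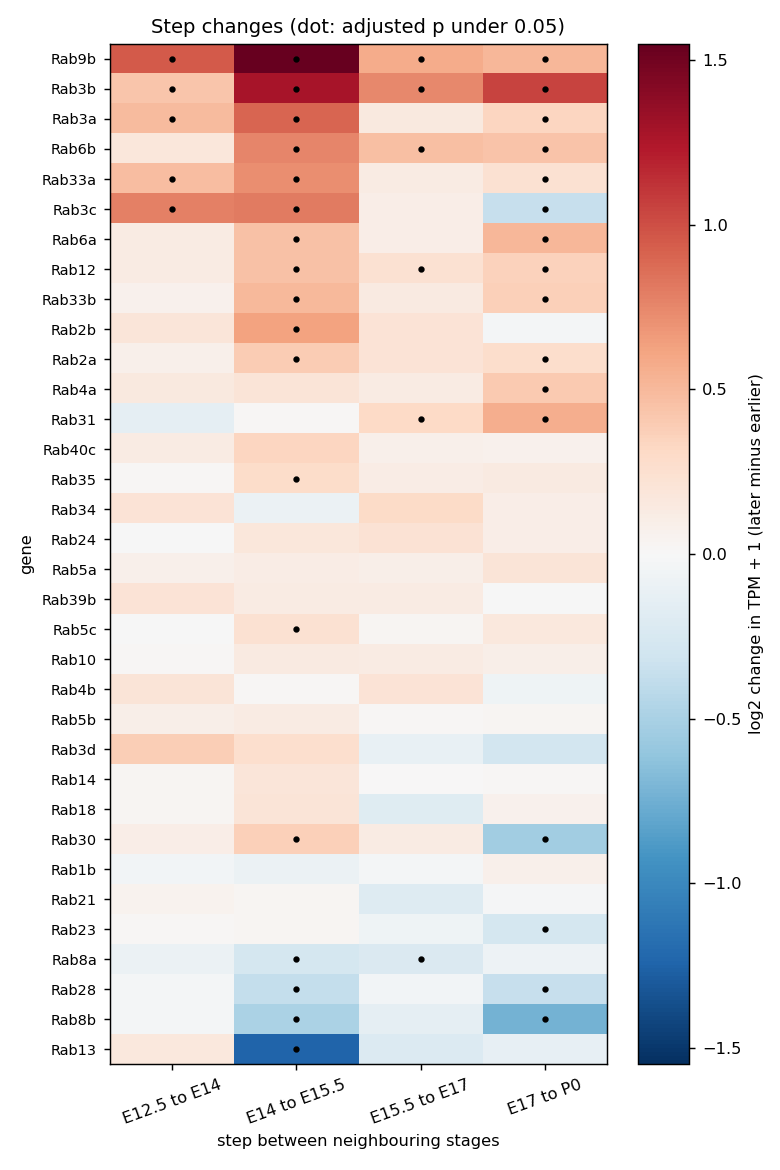
Log2 change in TPM + 1 of the 34 Rab genes (rows, ordered by change from E12.5 to P0) at the 4 steps between neighbouring stages; red is higher and blue lower at the later stage, and a dot marks an adjusted p under 0.05. Rab3b and Rab9b carry a dot at all 4 steps, and the E14 to E15.5 column holds 18 dots.

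Regulators of Rab proteins did not move as one group. Each of 4 lists is read against all genes tested from E12.5 to P0, of which 27.1% rose and 51% fell, 78.2% in all, with a median of -0.27. All 10 listed genes of prenylation and membrane extraction were in the table; 4 rose and 2 fell from E12.5 to P0, with a median of -0.01. The widely expressed carrier Gdi2 fell by 0.27 (SE 0.11, adjusted p = 0.0441), from 351 and 354 TPM to 285 and 299.9. The libraries of these 2 stages did not overlap. Rabac1, a prenylated Rab acceptor, rose by 1.17 (SE 0.11, adjusted p = 1e-06), and Rabggtb, the catalytic subunit of the transferase, fell by 0.29 (SE 0.09, adjusted p = 0.0122).

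Of 28 exchange factors in the table, 9 rose, 10 fell and 9 were not called (67.9% called), with a median of -0.10. Madd, the exchange factor for Rab3, and Trappc6b, of the TRAPP complexes, rose by 0.86 and 0.80. Dennd2a and Dennd6a fell by 1.58 and 1.57; adjusted p was 6.34e-05, 2.5e-06, 5.52e-07 and 2.62e-08 in that order. Of 21 GTPase-activating proteins, 10 rose, 6 fell and 5 were not called (76.2% called), with a median of 0.17. Tbc1d5, which acts on Rab7, rose by 1.87 (SE 0.11, adjusted p = 2.43e-08), and Tbc1d24, a gene of inherited epilepsy, by 1.46 (SE 0.12, adjusted p = 5.92e-07). Tbc1d8b and Tbc1d4, the latter an insulin-responsive regulator of Rab10, fell by 1.67 (SE 0.14, adjusted p = 5.81e-07) and 1.54 (SE 0.14, adjusted p = 1.25e-06).

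Of 50 effectors in the table, 29 rose, 12 fell and 9 were not called (82% called), with a median of 0.38. The 2 with the largest rises bind Rab3 on synaptic vesicles. Rph3a (rabphilin) went from 3.58 and 4.60 TPM at E12.5 to 51.9 and 54.0 at P0, a rise of 3.41 (SE 0.14, adjusted p = 1.36e-09), and Rims1, of the active zone, from 1.16 and 0.961 to 17.9 and 21.8, a rise of 3.33 (SE 0.13, adjusted p = 7.16e-10). The largest fall was that of Kif20a, a mitotic kinesin first described as a Rab6 partner, from 42.4 and 46.5 TPM to 1.96 and 1.78, a change of -3.99 (SE 0.13, adjusted p = 1.69e-10). Golga4, a Golgi tether, fell by 1.23 (SE 0.16, adjusted p = 2.3e-05). For the Rph3a, Rims1 and Kif20a libraries, E12.5 and P0 did not overlap.

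**Figure D5:**
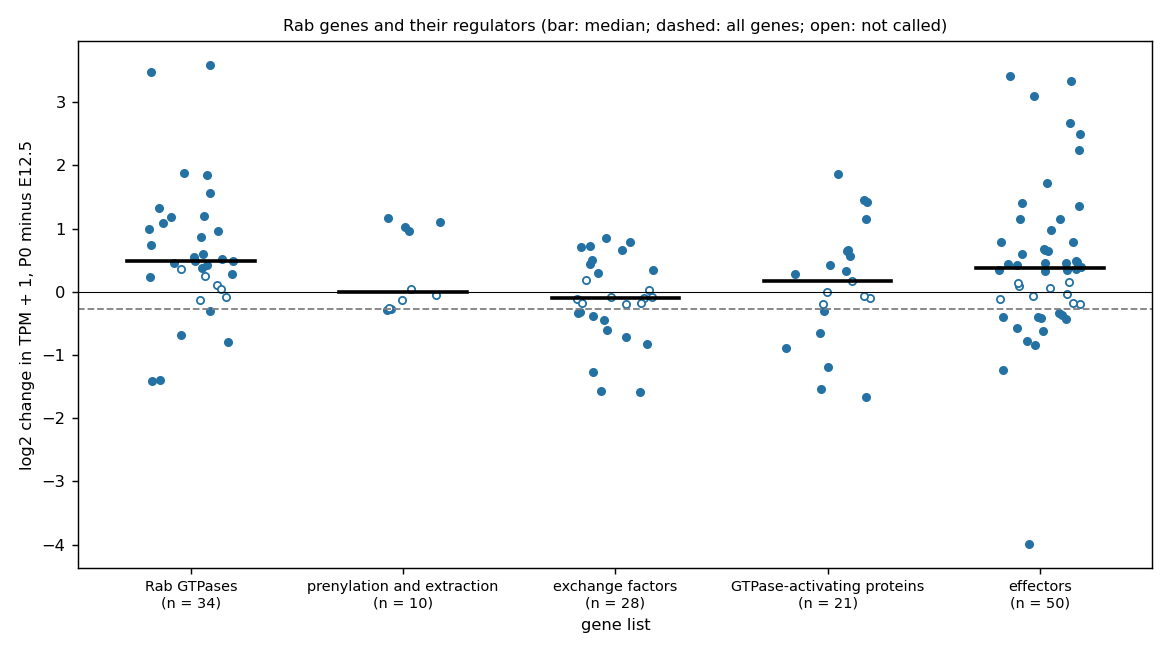
Log2 change in TPM + 1 from E12.5 to P0 for the 34 Rab genes and for 4 lists of genes that prenylate, load, switch off or bind them (points are genes, open where not called; black bars are list medians; dashed line, median of all genes). List medians were 0.49, -0.01, -0.10, 0.17 and 0.38 from left to right.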

How the data were processed

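The deposited table holds TPM per library, with gene identifiers and names, per the file headers. Per the labels' protocols, RNA was taken with TRIzol LS from the cleared detergent lysate of frozen, pulverised neocortex, and a stranded poly(A) kit was used. The submitters' processing notes name STAR, Subread and GRCm38.p5; their roles, the annotation, the strand setting, the gene lengths and the read numbers are not given in the sources that were used, so no counting error can be stated and precision rests on 2 libraries per stage. Stages came from the labels, columns were matched to libraries by name, and 0 columns were left unmatched.

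Values were analysed as log2(TPM + 1), which understates changes of genes near 1 TPM. Genes with a mean under 1 TPM were left out (99), leaving 6048. limma 3.58.1 (R 4.3.3) was fitted over all 10 libraries with 1 mean per stage, 5 residual degrees of freedom and a variance trend. P-values had Benjamini-Hochberg adjustment over all genes, and a gene was called under 0.05. Ratios between 12 pairs of related genes were tested with the exact permutation test of the F statistic and adjusted over the 12. The fit was tested on simulated data first.

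The Rab genes, their roles, the pathway and marker lists, the pairs and the tests were chosen with earlier results of these data known. By the rule for named genes, any Rab gene may be named; values in every library are given for the Rab3 genes and, in each other role, for the most abundant member, the largest called rise and fall, and members of called pairs. Rab8b, Rab8a and the promoters shown were added for their values. In pathway lists the 2 largest called rises and falls are named; 1 gene is not reported here. Positions came from GENCODE M21 (GRCm38), promoters from RefSeq (GRCm38.p6), and near-identical transcripts, at least 95% over at least 250 bases, from blastn 2.17.0. Tables and figures were made with Python 3.11.15, pandas 2.3.3 and matplotlib 3.10.9. Alternatives were other pseudocounts, filters, scalings, variance models, fits to the 4 libraries compared, a replicate block and leaving out each library.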

Additional observations from a re-analysis of the deposited data

How the results depend on the processing

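Over the alternatives that kept both libraries of each stage compared, 28 to 31 Rab genes were called from E12.5 to P0 (75.6% to 84.9% of all genes). By the F test 28 to 31 were called (80.1% to 91% of all genes). When single libraries were left out, these 2 counts and those from E14 to E15.5 and E17 to P0 stayed within 1.5 times the reported counts. Array weights gave 11, 28, 2 and 6 calls at the 4 steps in order of age (39.9%, 76.1% and 18.9% of all genes called at the first, second and last), and fits to only the 4 libraries compared gave 11, 28, 1 and 6 (41%, 75.6%, 1.98% and 18.6%). In both, 32.4% of the Rab genes were called from E12.5 to E14, below the share of all genes. From E15.5 to E17, array weights called 5.88% of the Rab genes, also below the share of all genes. At that step the fits to 4 libraries called 2.94% of the Rab genes, above the 1.98% of all genes. Leaving out single libraries gave 2 to 8 calls from E12.5 to E14 and 2 to 16 from E15.5 to E17. Whether replicate numbers pair the libraries cannot be told from a single replicate difference per stage. Over genes, the correlation of these differences between stages ran from -0.375 to 0.107. With the replicate number as a block, the counts were 28 for the F test and 28 from E12.5 to P0 (81.5% and 77.3% of all genes called). At the 4 steps they were 5, 19, 6 and 13 (7.64%, 49.7%, 23.3% and 39.2% of all genes). The pairs Rab3a/Rab3c (0.55, adjusted p = 0.117) and Rab6a/Rab6b (-0.65, adjusted p = 0.1) were then not called by the exact permutation test. Without single libraries, the log2 ratio change of Rab3a/Rab3c ran from 0.40 to 0.70, of Rab6a/Rab6b from -0.70 to -0.59, of Rab8a/Rab8b from 0.67 to 0.76 (called without E17 replicate 1 or 2), of Rab33a/Rab33b from 0.44 to 0.53 (called without E17 replicate 2), of Rab2a/Rab2b from -0.11 to 0.039 (called without E17 replicate 2, adjusted p = 0.0178 by the exact permutation test) and of Rab5a/Rab5c from -0.064 to 0.20. With a pseudocount of 10 TPM, Rab2a/Rab2b was at 0.039 and Rab4a/Rab4b at 0.71, the latter then called. Median-of-ratios scaling moved the uncalled Rab1b to 0.19 and Rab21 to 0.14 and made calls of Rab18 (0.39), Rab30 (0.32), Rab3d (0.52) and Rab4b (0.50), and Rab30 went to -0.052 without P0 replicate 2. Of 746 values for single genes, 721 kept direction and side of the threshold, 9 lost a call, 13 gained one and 3 changed sign. The causes of these changes were not tested. Without read numbers, how far depth limits Rab4b, near 1 TPM, cannot be stated.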
